A study of Mus musculus with 2 samples.

Results

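HCN pacemaker channels and their auxiliary subunit Trip8b were described through 4 genes, Hcn2, Hcn3, Hcn4 and Pex5l, of 55536 annotated genes in the tables. The genes were picked by symbol, with no measured value used as a criterion, though earlier results of these data were known at the time. The tissue was left cerebral cortex, taken at an age of 25 days from 2 female mice of strain B6CASTF1/J, a C57BL/6 by CAST hybrid, with no treatment in the labels. Its total RNA was sequenced. The libraries, replicates 1 and 2, form 1 group, each made from 300 ng of RNA with synthetic ERCC spike-ins added. They were taken as separate animals because the labels give each tissue its own animal number, although the same donor identifier is cited for both. If they share an animal, the spread between them is that of preparation only. Nothing contrasts conditions here, and a pair of libraries allows no exact sign-flip p below 0.5, so differences are given as sizes with intervals and no p.

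HCN channels open when the membrane is hyperpolarized and carry a mixed sodium and potassium current, known as Ih in neurons and as the pacemaker current in the heart. Cyclic AMP binds their cytoplasmic tail and eases opening. Trip8b, the brain protein encoded by Pex5l, binds the channel's tail at its last residues and at the cyclic nucleotide binding domain. Its alternatively spliced N-terminal parts are known to set whether it raises or lowers the number of channels at the cell surface. Hcn2 encodes a widely expressed brain subunit, Hcn3 a subunit with a weak response to cyclic AMP, and Hcn4 the main subunit of the sinoatrial node, in the brain best known from thalamus and a few other regions. The balance below covers only these 3 channel genes, and other HCN genes are not reported here.

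On mm10 with GENCODE M21, Hcn2 (ENSMUSG00000020331.9) lies on the plus strand at chr10:79716634-79736108 and has 2 annotated transcripts. Hcn3 (ENSMUSG00000028051.10) lies on the minus strand at chr3:89146074-89160196 and has 4. Hcn4 (ENSMUSG00000032338.9) lies on the plus strand at chr9:58823412-58863175 and has 1. Pex5l (ENSMUSG00000027674.16) lies on the minus strand at chr3:32949408-33143247 and has 12, of which 9 are annotated as protein-coding.

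The 3 channel transcripts that led their genes end in the coding bases for the tail that Trip8b contacts. These are the last 30 coding bases before the stop codon, from the GENCODE M21 transcripts, with the last 9 in capitals.
Hcn2-202: tctgcgcgctcgcgcctctctTCCAACTTG
Hcn3-201: cccagaggtccccaaatttctGCCAACATG
Hcn4-201: ccagtacgctccaaactgccgTCTAATTTA
They lie at chr10:79735508-79735537 on the plus strand, chr3:89147602-89147631 on the minus strand and chr9:58860731-58860760 on the plus strand. Of the 9 capital bases, 6 match between Hcn2 and Hcn4, 7 between Hcn2 and Hcn3, and 4 between Hcn3 and Hcn4. Read as codons, the capitals of Hcn2 and Hcn4 encode the same residues, serine, asparagine and leucine. Those of Hcn3 encode alanine, asparagine and methionine. The order of likeness by bases is thus not that of these last residues, and residues further in were not compared. Over the aligned coding bases, identity was 76.3% for Hcn2 and Hcn4, 72.03% for Hcn2 and Hcn3, and 75.8% for Hcn3 and Hcn4. Long exact matches were rare all the same. Hcn2-202 shares 2 words of 31 bases with Hcn4-201 and 3 with Hcn3-201, and Hcn3-201 shares 2 with Hcn4-201. In the alignment-based tables the deposited posterior SD of the gene-level count was 0 for all 4 genes in both libraries, so no reads were divided there between any of them and another gene. The FASTQ-based gene count of Pex5l was not whole (5654.23 and 5773.37).

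All 4 genes were detected, at a TPM (transcript abundance corrected for length and scaled to a fixed library total) of at least 1 in both libraries, as were 58.7% of nuclear protein-coding genes and 27.5% of all annotated genes. Their levels ran from Pex5l down through Hcn2 and Hcn3 to Hcn4 in both animals. Values with ± are means and SD over the 2 libraries (n = 2). Unless another table is named they come from the alignment-based tables, which the authors made from reads aligned to the transcriptome. The FASTQ-based table, made directly from the reads, is given beside them.

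Pex5l had 92.9 TPM in replicate 1 and 114 TPM in replicate 2 (104 ± 15.1), from 5299 and 5362 expected counts, and stood at percentile 93.4 of the detected nuclear protein-coding genes. Hcn2 had 53.7 and 53.6 TPM (53.7 ± 0.106), from 3462 and 2899 counts, at percentile 84.4. The animals differed in Pex5l and had nearly the same TPM of Hcn2, and the lower Pex5l library was still above both Hcn2 values. Hcn3 had 8.17 and 8.05 TPM (8.11 ± 0.0849) from only 395 and 322 counts, at percentile 30.4. Hcn4 had 3.39 and 2.72 TPM (3.06 ± 0.474) from 424 and 286 counts, at percentile 11.7. No value of one gene overlapped that of its neighbour in this order. In bulk tissue a low level in every cell and a high level in few cells cannot be told apart.

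**Figure D1:**
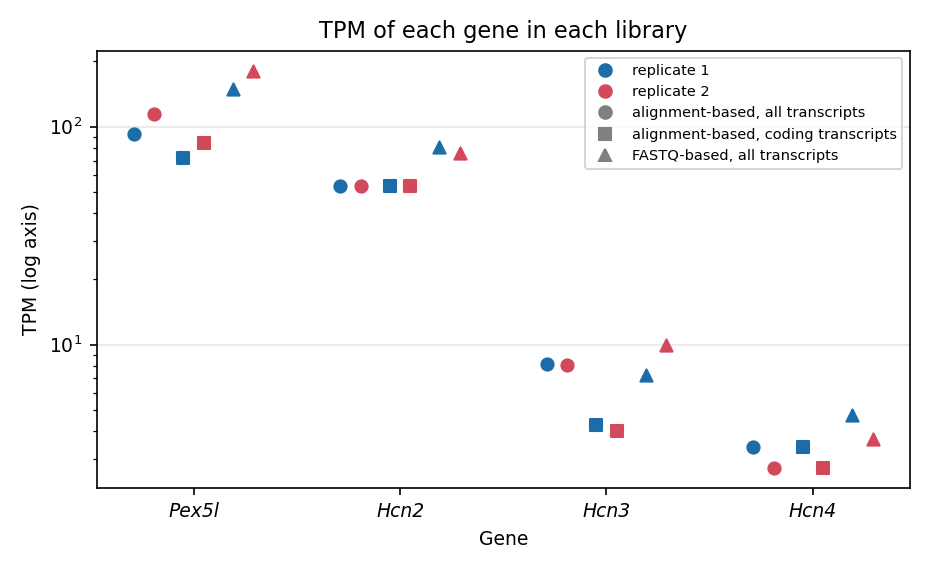
TPM (vertical log axis) of Pex5l, Hcn2, Hcn3 and Hcn4 (horizontal axis), 1 point per library (blue replicate 1, red replicate 2), by alignment over all transcripts (circles), alignment over protein-coding transcripts (squares) and the FASTQ-based table (triangles). Pex5l stands highest in each of the 3 sets, and the gap between Hcn3 and Hcn4 narrows when only protein-coding transcripts are summed.

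The FASTQ-based table gave the same order at other levels. Pex5l had 149 and 181 TPM there, Hcn2 80.5 and 75.8, Hcn3 7.24 and 9.96, and Hcn4 4.76 and 3.68. Estimated counts moved far less than TPM, with 5654 and 5773 for Pex5l and 3653 and 3055 for Hcn2.

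Hcn2 made up most of the message of the 3 channel genes. It held 82.3% and 83.3% of their summed TPM (82.8% ± 0.685), Hcn3 held 12.5% in both libraries, and Hcn4 held 5.19% and 4.23% (4.71% ± 0.682). Hcn2 exceeded Hcn3 by 6.58-fold in replicate 1 and 6.66-fold in replicate 2, a log2 ratio of 2.73 ± 0.01. Its excess over Hcn4 was 15.9-fold and 19.7-fold (log2 ratio 4.14 ± 0.22). Both log2 ratios were many times the spread between libraries. The ratio to Hcn3 moved with the transcripts summed, to 12.5-fold and 13.3-fold over protein-coding transcripts and to 11.1-fold and 7.61-fold in the FASTQ-based table over all transcripts. Hcn3 held 6.85% ± 0.216 of the summed protein-coding TPM.

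The margin between Hcn3 and Hcn4 depended on which transcripts were counted. Hcn3 stood 2.41-fold above Hcn4 in replicate 1 and 2.96-fold above in replicate 2 over all transcripts. With protein-coding transcripts only, Hcn3 fell to 4.30 and 4.04 TPM, and the ratio to Hcn4 was 1.27 and 1.49. In the FASTQ-based table the ratio was 1.52 and 2.71 over all transcripts, and 1.45 and 1.58 over protein-coding ones. On raw counts, where the longer Hcn4 transcript of 6118 nt against 4002 nt for Hcn3-201 collects more reads per molecule, it was 0.932 and 1.13, so the animals differed in direction. Per length, Hcn3 was the higher in each of these 4 sums in both libraries, by a margin that ranged from 1.27-fold to 2.96-fold.

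**Figure D2:**
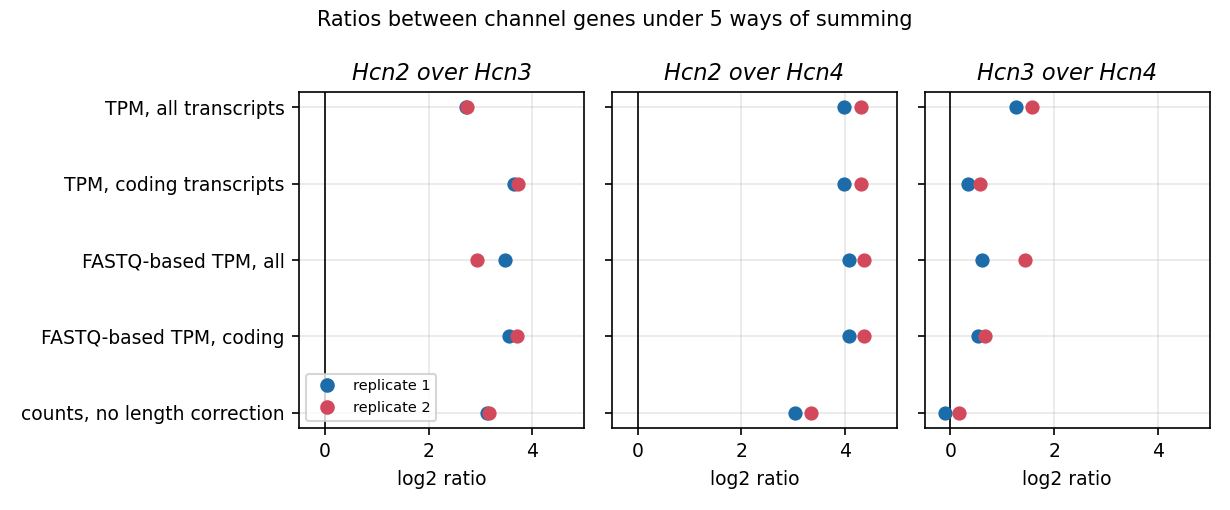
Log2 ratios between channel genes (horizontal axes) under 5 ways of summing (rows), 1 point per library (blue replicate 1, red replicate 2), with a line at equality. Hcn2 lies well to the right of the line against both others, while Hcn3 over Hcn4 runs from -0.10 to 1.57.

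Trip8b message exceeded that of each of the 3 channel genes. Pex5l was 1.73-fold above Hcn2 in replicate 1 and 2.13-fold in replicate 2, 11.4-fold and 14.2-fold above Hcn3, and 27.4-fold and 41.99-fold above Hcn4. The channel genes together came to 65.3 and 64.4 TPM, and Pex5l over that sum was 1.42 and 1.77 (1.60 ± 0.249). Summed over protein-coding transcripts on both sides, the ratio was 1.17 and 1.40 (1.28 ± 0.164). Pex5l therefore lay above the sum in both libraries by either measure, but part of its TPM came from transcripts with no annotated protein.

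Transcript use was simple for 2 of the channel genes. Hcn2-202 took 100% of Hcn2 TPM in both libraries, and 100% and 99.2% in the FASTQ-based table. It has the same coding length of 2589 nt as Hcn2-201 and keeps a stretch of 106 nt beyond the stop codon, chr10:79735873-79735978, that Hcn2-201 splices out. Hcn4-201 is the only annotated transcript of its gene.

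Hcn3 was divided between its protein-coding transcript and short transcripts without an annotated protein. Hcn3-201, the protein-coding form, held 52.6% and 50.2% of Hcn3 TPM. Hcn3-202, a retained-intron transcript, held 17.6% and 2.86%, and Hcn3-203, of the same class, held 13.1% and 24.3%. Hcn3-204, a processed transcript from the 5′ part of the gene, held 16.7% and 22.6%. In the FASTQ-based table Hcn3-201 held 95.1% in replicate 1 and 58.2% in replicate 2, so the 2 quantifications were close in replicate 2 and far apart in replicate 1. The 3 short transcripts, 533 to 909 nt long, rested on 46.0 expected counts of 395 in replicate 1 and 46.3 of 322 in replicate 2. They thus took 11.6% and 14.4% of the gene's counts against 47.4% and 49.8% of its TPM. The deposited TPM bounds of Hcn3-202 ran from 4.01e-05 to 2.66 in replicate 1 and from 2.20e-05 to 2.06 in replicate 2, and its share was not resolved at this depth. For Hcn3-201 the deposited bounds were 3.66 to 4.63 and 3.41 to 4.44 TPM, and those of Hcn4-201 were 2.97 to 3.59 and 2.32 to 2.93 TPM. The bounds of Hcn3-201 and Hcn4-201 did not overlap within either library, which places the protein-coding Hcn3 message above Hcn4 by counting and assignment error alone, the only errors these bounds cover. The gene Pklr, on the opposite strand over Hcn3, had 0 and 1 counts.

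Apart from Pex5l-203, Pex5l transcripts begin in 2 regions, called the upstream and downstream first exon here. The coding exons next to them give the N-terminal variants. In the downstream region the name stands for the first coding exon, which in Pex5l-209 follows an exon without coding bases. The upstream first exon lies at chr3:33142849-33143082 in Pex5l-206 and brings 21 coding nt. The downstream first coding exon lies at chr3:33081976-33082135 in Pex5l-209, 61.1 kb from the gene's 5′ end, and brings 93 coding nt, or 18 in Pex5l-204, whose start codon is further in. It is followed by exon A of 72 nt (chr3:33080465-33080536), then in some transcripts by exon B of 105 nt (chr3:33024696-33024800), and then by exon C of 112 nt (chr3:33014965-33015076), all coding in Pex5l-209. Pex5l-206 joins its upstream first exon directly to exon C. These are the coding starts, from the GENCODE M21 transcripts on the minus strand. The coding bases of the first coding exon are in capitals and the start of the next exon is in lower case.
Pex5l-206: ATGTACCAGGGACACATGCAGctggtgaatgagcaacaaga
Pex5l-209: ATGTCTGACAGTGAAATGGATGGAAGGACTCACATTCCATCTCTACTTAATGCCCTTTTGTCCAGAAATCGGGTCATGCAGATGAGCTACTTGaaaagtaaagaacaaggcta
Pex5l-204: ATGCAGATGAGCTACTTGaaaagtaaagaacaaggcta
With introns included, these stretches span chr3:33015057-33142869, chr3:33080517-33082068 and chr3:33080517-33081993. The splice choice at exon B is shown next, with exon B in capitals between the last bases of exon A and the first of exon C (chr3:33015065-33080476 with introns, minus strand).
Pex5l-205: gaccagaagcagctggtgaatgag
Pex5l-209: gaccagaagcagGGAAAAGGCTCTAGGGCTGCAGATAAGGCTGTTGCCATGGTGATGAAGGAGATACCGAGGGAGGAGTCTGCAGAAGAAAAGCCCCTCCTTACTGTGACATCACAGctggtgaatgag
The coding length was 1701 nt in Pex5l-206, 1773 in Pex5l-204, 1845 in Pex5l-205 and 1950 in Pex5l-209 and Pex5l-211. Exon B adds its 105 nt without a change of reading frame.

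Pex5l-206, the protein-coding form from the upstream first exon, was the leading Pex5l transcript by TPM in both libraries and both quantifications. It held 38.7% of Pex5l TPM in replicate 1 and 34.6% in replicate 2 (36.7% ± 2.89), which was 36.0 and 39.6 TPM. The FASTQ-based shares were 28.7% and 22.0%, against 28.1% and 19.2% for Pex5l-209. On FASTQ-based estimated counts Pex5l-209 was the higher in both libraries, at 2122 and 1566 against 1549 and 1290 for Pex5l-206. By TPM the leader was the same in all 4 tables for 3 of 3 members with several transcripts. It was also the same for 64.2% of 11706 detected genes with several transcripts (88% between the libraries by alignment and 82.7% by FASTQ). No transcript of Pex5l reached 50% of its TPM in either library, while 61.3% of those genes had 1 transcript with at least 50% in both. Hcn2 and Hcn3 were among the latter.

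The remaining Pex5l message was split over 8 other transcripts that passed 5% in at least 1 table. Among the protein-coding forms from the downstream first exon, Pex5l-205, which lacks exon B, held 16.6% and 20.3%, and Pex5l-209, which has it, held 14.5% and 9.86%. The FASTQ-based table gave nearly the reverse, with 4e-06% and 8.45% for Pex5l-205 and 28.1% and 19.2% for Pex5l-209. Pex5l-211, which has exon B, held 5.20% and 6.25%, against 4.30% and 4.60% by FASTQ. Pex5l-204, which lacks exon B, held 2.17% and 2.89%, against 10.6% and 10.1% by FASTQ. Pex5l-203, which starts inside the gene and has a coding length of 1032 nt, was listed at 0 in both alignment-based tables and at 6.46% and 12.2% in the FASTQ-based ones. The 3 transcripts without an annotated protein all begin at the upstream first exon. Of these, the retained-intron transcript Pex5l-202 held 10.3% and 9.999%, the retained-intron transcript Pex5l-212 held 6.63% and 7.52%, and the processed transcript Pex5l-207 held 5.91% and 8.55%. Pex5l-201 and Pex5l-210 were listed at 0 in all 4 tables.

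**Figure D3:**
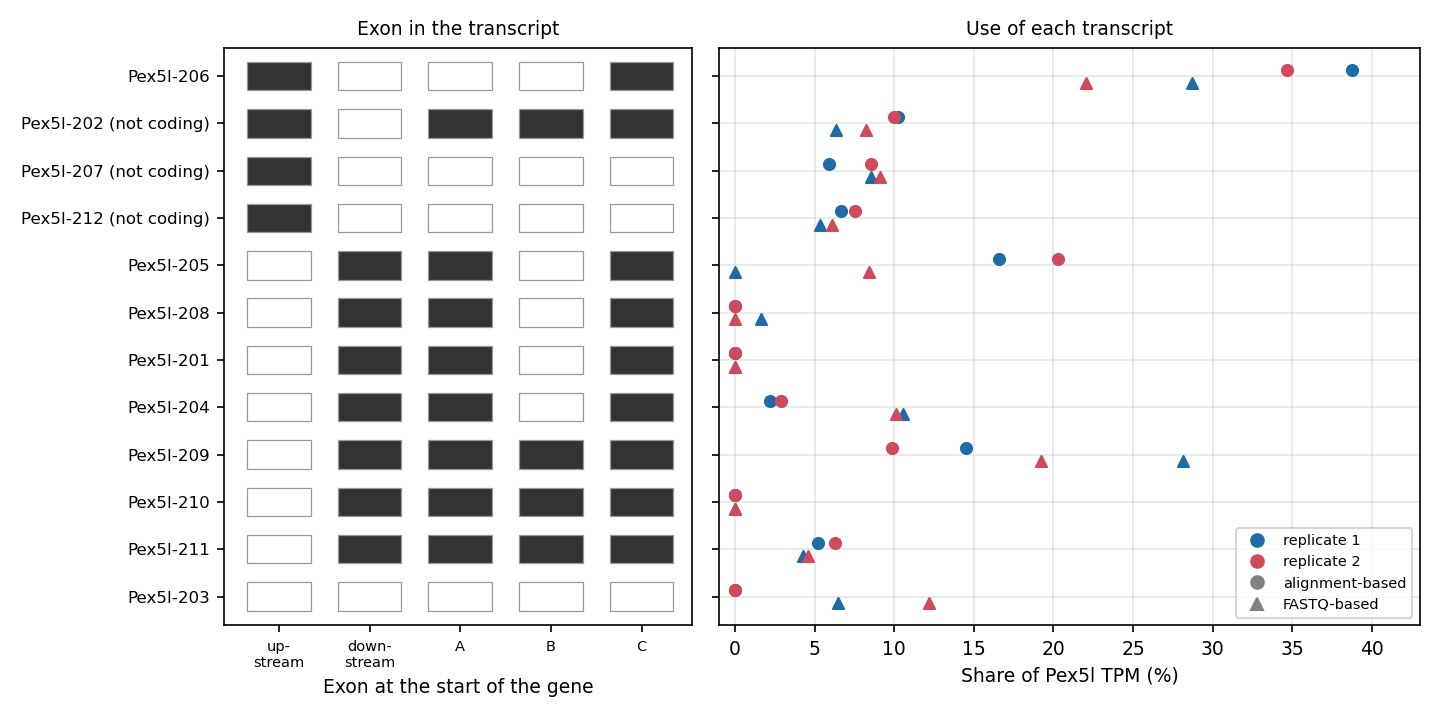
The left panel marks which first exon (upstream or downstream) and which of exons A, B and C each of the 12 Pex5l transcripts holds (filled boxes), and the right panel gives its share of Pex5l TPM in percent (circles alignment-based, triangles FASTQ-based, blue replicate 1, red replicate 2). Pex5l-206 lies farthest right in each library and quantification, closely followed by Pex5l-209 in replicate 1 by FASTQ. The quantifications part widely at Pex5l-205 and Pex5l-209, and also at Pex5l-206 and Pex5l-203.

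The Pex5l transcripts share most of their sequence. Of 31-base words, 0 are unique to Pex5l-205, Pex5l-209, Pex5l-208 or Pex5l-201 among the Pex5l transcripts, 26 to Pex5l-206, 29 to Pex5l-204 and 88 to Pex5l-203. The transcripts without an annotated protein carry 429 (Pex5l-207), 960 (Pex5l-202) and 2866 (Pex5l-212), and Pex5l-211 carries 616. Mean shares by alignment and by FASTQ were 7.23% and 8.82% for Pex5l-207, 10.1% and 7.30% for Pex5l-202, 7.08% and 5.69% for Pex5l-212, and 5.72% and 4.45% for Pex5l-211. They were 18.4% and 4.22% for Pex5l-205 and 12.2% and 23.7% for Pex5l-209, both without unique words. Pex5l-201 and Pex5l-208 also have none, and their mean shares were 0% and 0% and 0% and 0.809%. Pex5l-210 has 30 and stood at 0% in both. Other transcripts with some unique words also differed, at 36.7% and 25.4% for Pex5l-206, 2.53% and 10.3% for Pex5l-204, and 0% and 9.31% for Pex5l-203. Whether the lack of unique words bears on the differences between quantifications was not tested. Grouped by first exon, 4587 of 7164 words were found only in the upstream group and 1745 of 4322 only in the downstream group. Most of the upstream words belong to the transcripts without an annotated protein, and the single protein-coding upstream form, Pex5l-206, has only its 26. Against all other Pex5l transcripts, 740 words occur only in the downstream transcripts with exon B and 55 only in those without it. These 740 include the 616 of Pex5l-211, and exon B is also in Pex5l-202, so they do not measure exon B alone. The deposited TPM bounds for Pex5l-205 ran from 10.04 to 18.8 TPM in replicate 1 and from 15.9 to 27.0 in replicate 2, and for Pex5l-209 from 9.75 to 16.4 and from 6.19 to 15.2, so that neither transcript's bounds separated the animals. These bounds do not cover the difference between quantifications, since the FASTQ-based TPM in replicate 1 was 41.8 for Pex5l-209 and Pex5l-205 was listed at 0.

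Transcripts were therefore also grouped by first exon and by exon B, a grouping chosen after the values of the single transcripts had been seen. Transcripts from the upstream first exon held 61.5% and 60.7% of Pex5l TPM, and 48.9% and 45.5% by FASTQ. These sums include the transcripts without an annotated protein, at 22.8% and 26.1%, and 20.2% and 23.4% by FASTQ. Among them Pex5l-212 is a single unspliced exon. Among protein-coding transcripts alone, the upstream form held 50.2% and 46.9% and the downstream forms 49.8% and 53.1%, an upstream over downstream ratio of 1.01 and 0.882. In the FASTQ-based table that ratio was 0.643 and 0.520. The alignment-based tables thus placed the coding forms near equality, and the FASTQ-based tables placed the downstream forms higher in both animals.

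Exon B was present in 51.2% of downstream coding TPM in replicate 1 and in 41.0% in replicate 2 (46.1% ± 7.20). The FASTQ-based shares were 72.7% and 56.3% (64.5% ± 11.6), and shares of expected counts were 56.1% and 46.4%. Replicate 1 had the higher inclusion in each of these measures. The downstream coding transcripts with exon B had 18.3 and 18.4 TPM and those without it 17.5 and 26.5 TPM. In the FASTQ-based table they had 48.2 and 43.1 TPM with exon B and 18.1 and 33.5 TPM without it. The excess of replicate 2 in downstream message was thus on the side without exon B in both tables. With 2 libraries and overlapping bounds for the single transcripts, the difference was not tested.

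**Figure D4:**
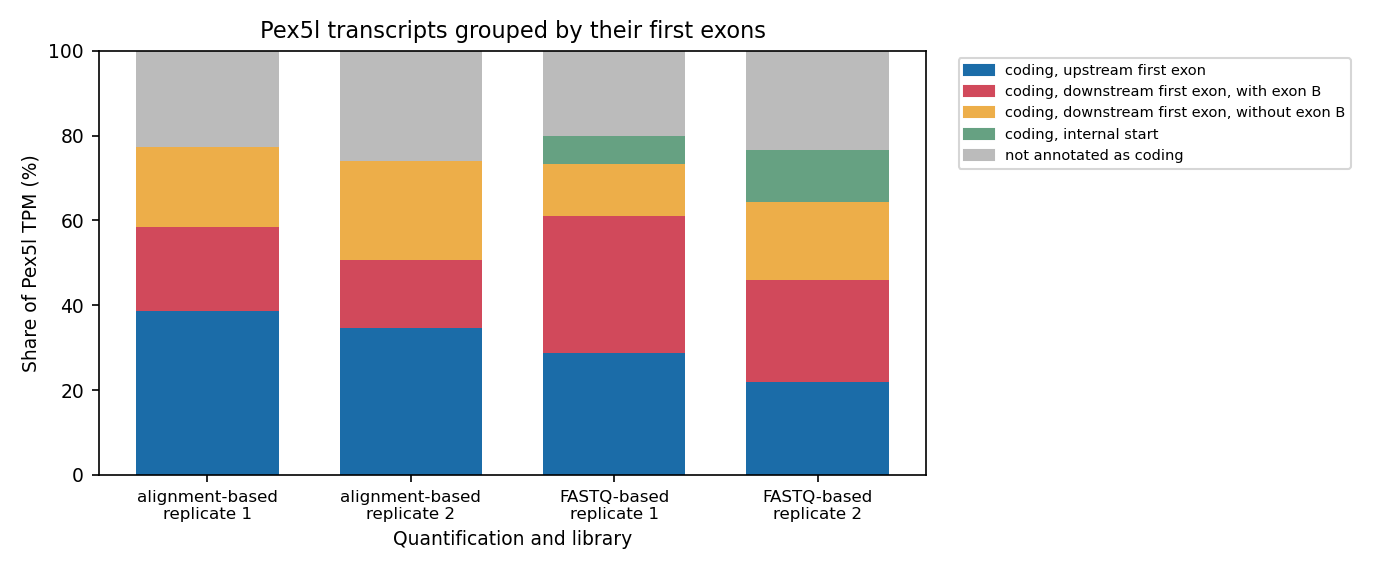
Share of Pex5l TPM in percent (vertical axis) for each library and quantification (bars), divided into protein-coding transcripts from the upstream first exon, from the downstream first exon with and without exon B, from an internal start, and transcripts not annotated as coding. The segment with exon B is larger in the FASTQ-based bars, and the segment without it is larger in replicate 2 than in replicate 1 in both quantifications.

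Transcripts without an annotated protein took 22.8% and 26.1% of Pex5l TPM, and 20.2% and 23.4% by FASTQ. Their level was 21.2 TPM in replicate 1 and 29.8 TPM in replicate 2, a ratio of 1.41, and the FASTQ-based ratio was also 1.41. Other annotated entries overlap Pex5l. The same-strand entries Gm37443 and Gm19445 had 101 and 155 counts and 150 and 195 counts, and the opposite-strand entries Gm37459, Gm23214 and 4930419G24Rik had at most 1 count. Whether the authors' counting used strand is not given in the sources used here. Pex5, the paralog of Pex5l that encodes the peroxisomal import receptor, shares 0 of the 8997 Pex5l words of 31 bases.

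Between the animals, counts were compared as CPM (counts scaled to library size, here after TMM normalization), with exact 95% intervals of the count ratio that cover counting error only. Pex5l had 172 CPM in replicate 1 and 195 in replicate 2, a ratio of replicate 2 over replicate 1 of 1.14 (1.09 to 1.18), and 9.99% of 11721 genes at a mean of at least 5 CPM had a higher ratio. Hcn2 had 112 and 106 CPM, a ratio of 0.9401 (0.895 to 0.988). Hcn3 had 12.8 and 11.7 CPM, a ratio of 0.915 (0.787 to 1.06), an interval that includes equality. Hcn4 had 13.8 and 10.4 CPM, a ratio of 0.757 (0.649 to 0.882), and 1.89% of those genes had a lower one. Replicate 1 therefore had 1.32-fold (1.13 to 1.54) more Hcn4 message, and replicate 2 more Pex5l message.

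No member passed a 2-fold difference, which 0.256% of the genes did (0.0597% higher and 0.196% lower in replicate 2). The interval left out equality for 3 of 4 members, and for 37.5% of the genes. Replicate 2 was higher for 1 member, against 13.5% of genes, and lower for 2, against 24% of genes. The log2 ratios of the genes had a median of -0.03 and 5th and 95th percentiles of -0.28 and 0.28. Hcn4 at -0.40 lay outside that range and Pex5l at 0.18, Hcn2 at -0.09 and Hcn3 at -0.13 lay inside. The count interval of Hcn4, from -0.62 to -0.18, reached inside the range, which pools genes of all levels above the CPM minimum. On the TPM scale the median log2 ratio of the same genes was 0.06, so TPM and CPM ratios of a member differ by a shift of all genes. The common biological coefficient of variation between the libraries was 9.10%, and the trended value at the level of Hcn4 was 9.71%.

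**Figure D5:**
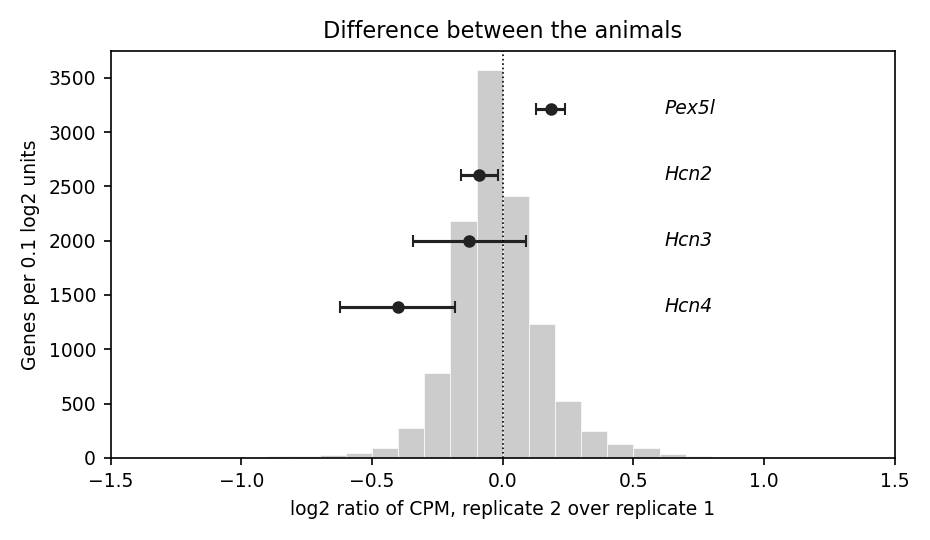
Log2 ratio of CPM, replicate 2 over replicate 1 (horizontal axis), as a histogram of 11721 genes (grey, genes per bin) with the 4 members drawn as points with exact 95% count intervals at arbitrary heights. Pex5l lies right of 0 at 0.18, and Hcn4 lies left at -0.40, outside the central 90% of genes, with an interval that reaches inside.

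Markers of brain regions and cell types differed between these tissue samples in the same comparison. Over the 11721 genes compared, the median log2 ratio was -0.03, so ratios below 1 were the more common side. Intervals lay below equality for 24% of those genes and above it for 13.5%. All 7 striatal genes were lower in replicate 2 (summed TPM 451 and 310, median log2 ratio -0.68), among them Ppp1r1b and Penk. All 6 thalamic genes had ratios below 1 (summed TPM 73.7 and 63.9, median -0.38), of which the most abundant were Rora and Slc17a6, a vesicular glutamate transporter, and the interval left out equality for 4 of them. The 6 inhibitory neuron genes were likewise below 1 (536 and 478, median -0.20), of which the most abundant were Sst and Gad1. These 3 lists moved in the direction of Hcn4. The 8 genes of myelinating oligodendrocytes were all higher in replicate 2 (1508 and 2375, median 0.55), and 6 of 7 cortical excitatory neuron genes had ratios above 1 (1868 and 2017, median 0.20), with 4 intervals above equality and 1 below. The most abundant of them, Nrgn and Slc17a7, had ratios of 1.01 (0.990 to 1.02) and 1.01 (0.996 to 1.027), which include equality. These 2 lists moved in the direction of Pex5l. The medians of the lists for layer 5 neurons, hippocampus, oligodendrocyte precursors, astrocytes, microglia and endothelium lay between -0.10 and 0.04. No marker of the 11 lists was at 0 counts in both libraries, and the cortical excitatory genes were all detected. The part of tissue makeup in the differences of Hcn4 and Pex5l was not tested.

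Other proteins that bind or modulate HCN channels were mostly present. Of 15 genes in that list, 13 were detected (58.7% of nuclear protein-coding genes). They were led by Apba2, an adaptor with PDZ domains, at 108 ± 0.276 TPM. Nedd4l, a ubiquitin ligase, had 83.6 ± 4.31 TPM, and Vapa, an endoplasmic reticulum contact protein, had 71.7 ± 1.17 TPM. Pex5l at 104 TPM was close to Apba2 and above every other gene of the list. Between the animals none passed 2-fold at the required level, 2 intervals lay above equality and 3 below among 11 genes with at least 5 CPM (all genes 13.5% and 24%), and the median log2 ratio was -0.05.

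Of the 6 cyclic nucleotide-gated channel genes, best known from sensory cells, 0 were detected (58.7% of nuclear protein-coding genes). Cnga4 had 0.405 ± 0.0212 TPM, Cngb1 0.150 ± 0.0849, and Cnga2 was at 0 and 2 counts. The 3 HCN genes here were above these relatives in both libraries, with Hcn4 the nearest at 3.06 TPM.

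Of the enzymes of cyclic AMP turnover, a chosen list of 13 was examined, and 13 of 13 were detected (58.7% of nuclear protein-coding genes). The highest were Pde2a, a phosphodiesterase, at 167 ± 3.30 TPM, Adcy1, a calcium-stimulated adenylyl cyclase, at 120 ± 18.8 TPM, and Pde1b, a calcium-dependent phosphodiesterase, at 89.2 ± 14.03 TPM. None passed 2-fold. The interval of Adcy1 lay above equality with a ratio of 1.18 (1.16 to 1.20) and that of Pde1b below it with 0.751 (0.721 to 0.783), among 4 higher and 5 lower in replicate 2 of 13 (all genes 13.5% and 24%), and the list's median was -0.05. Intervals from counts alone are narrow for abundant genes, so these shares move with expression level.

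The other listed channels active near rest were detected in 17 of 17 cases (58.7% of nuclear protein-coding genes). Kcnj4, an inward rectifier, had 91.1 ± 0.00707 TPM, Kcnq3, a voltage-gated potassium channel subunit, had 67.8 ± 1.80 TPM, and Kcnj9, a subunit of channels opened by G proteins, had 59.1 ± 5.75 TPM. Hcn2 at 53.7 TPM lay below these 3, and Hcn3 and Hcn4 lay below all 17 genes of the list, of which the lowest by mean, Kcnk3, had 9.28 TPM in both libraries. Kcnj2 was lower in replicate 2, at 8.54 TPM against 8.05 for Hcn3. Between the animals 4 intervals lay above equality and 9 below of 17 (all genes 13.5% and 24%), none passed 2-fold, and the median was -0.07.

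The listed peroxisomal import genes, the family setting of Pex5, were detected in 10 of 10 cases (58.7% of nuclear protein-coding genes), at lower levels than Pex5l. Pex5 had 29.5 ± 1.77 TPM, Pex6 21.6 ± 0.905 and Pex14 21.2 ± 1.90. Pex5l thus stood above its paralog in both libraries, at 92.9 against 28.3 TPM and at 114 against 30.8 TPM. No interval of the 10 genes left out equality and the median log2 ratio was 0.00. They have fewer counts than Pex5l, and a difference from it between the animals was not tested.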

How the data were processed

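Per the submitters' file description, the authors quantified each library on mm10 with GENCODE M21, both from reads aligned to the transcriptome and directly from the FASTQ reads. Neither aligner nor quantifiers are named in the labels or headers. The deposited expected counts (estimated counts, not always whole), TPM and percent of a gene's TPM per transcript were used as given. The deposited lower and upper TPM bounds come from the authors' quantifier, whose interval level the headers do not state. FASTQ-based estimated counts and TPM were summed per gene.

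Annotated genes held 31191535 and 27079700 expected counts, so a count of 0 allows up to 3 counts (0.0962 and 0.111 CPM). Spike-ins took 0.350% and 0.378% of counts, and entries with only a number took 6.39e-06% and 1.81e-05% and were left out. The libraries differed by 8.51 in chi-square per degree of freedom over 18464 genes far above sampling noise. Without molecular identifiers, intervals and floors cover counting error only.

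Rounded expected counts gave TMM factors (0.987 and 1.01) and the coefficient of variation in edgeR 4.0.16 (limma 3.58.1, R 4.3.3), and DESeq2 1.42.0 size factors were an alternative. With 1 group no contrast between conditions could be fitted, and the coefficient of variation came from a fit with an intercept only. Count ratios have exact 95% intervals. The interval code was tested on data simulated with counting error only, so that test does not cover the wider spread between these libraries. Coding identity is from a global alignment in Biopython 1.88. Other work used Python 3.11.15 with scipy 1.17.1, pandas 2.3.3, matplotlib 3.10.9 and numpy 2.4.6.

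Named were the 4 members, every transcript of them with at least 5% of its gene's TPM in any table, the top 3 genes by TPM of 5 pathway lists with any past 2-fold at a mean of at least 5 CPM, and the top 2 of 11 marker lists where a result touches them. Other genes named were chosen after their values were seen. 1 gene was left out of a pathway list and is not reported here. Members and lists were chosen with earlier results of these data known. Alternatives covered quantification, coding transcripts, scaling, filters, pseudocounts and leaving out a library.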

Additional observations from a re-analysis of the deposited data

How the results depend on the processing

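No paired analysis was possible because the libraries form 1 group. Leaving out either library leaves the other one's value, which the report gives for each member. The mean ratios between member genes and between the animals kept their direction under every alternative run. The FASTQ-based table gave mean TPM of 78.1 for Hcn2, 8.60 for Hcn3, 4.22 for Hcn4 and 165 for Pex5l. Deposited posterior means gave 51.8 for Hcn2 and 8.22 for Hcn3, and protein-coding transcripts gave 4.17 for Hcn3 and 78.1 for Pex5l.

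The log2 ratio of Hcn2 over Hcn3 was 3.20 by FASTQ, 2.66 by posterior means, 3.69 over protein-coding transcripts, 3.15 on counts, 2.59 with a pseudocount of 1 and 3.63 by FASTQ over protein-coding transcripts. Hcn2 over Hcn4 was 3.19 on counts and 3.76 with the pseudocount. Hcn3 over Hcn4 was 1.02 by FASTQ, 0.46 over protein-coding transcripts, 0.034 on counts, 1.17 with the pseudocount and 0.60 by FASTQ over protein-coding transcripts. Pex5l over Hcn2 was 0.54 over protein-coding transcripts and 0.71 by FASTQ over them. Pex5l over Hcn3 was 4.27 by FASTQ, 4.22 over protein-coding transcripts, 3.90 on counts and 4.34 by FASTQ over protein-coding transcripts, and Pex5l over Hcn4 was 3.94 on counts. The FASTQ-based sum over protein-coding transcripts was added after the data were seen.

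Pex5l-206 held 25.4% by FASTQ and 48.5% of protein-coding TPM. The downstream coding forms held 43.5% by FASTQ, 47.0% of counts and 51.5% of protein-coding TPM, against 38.9% in the alignment-based tables. Exon B was in 46.1% of downstream coding TPM in the alignment-based tables, 51.2% of counts and 64.5% by FASTQ, so the larger side changed, as did the order of Pex5l-205 and Pex5l-209 by FASTQ. Hcn3-201 held 76.6% by FASTQ. The cause of these shifts was not tested. The share of genes past 2-fold between the animals was 0.478% on FASTQ-based counts and 23.8% without the CPM minimum, and without it 1 HCN-binding gene and 2 cyclic nucleotide-gated genes passed, all at 10 counts or fewer in either library. DESeq2 scaling, library totals, FASTQ counts and pseudocounts kept the direction of all 4 members' differences.

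Depth limits the values of Hcn3, with 395 and 322 counts, of Hcn4, with 424 and 286, and of the short Hcn3 transcripts, with about 46 between them in each library.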
